A study of Mus musculus with 11 samples.

Results

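Cadherins are calcium-dependent adhesion proteins that hold neighbouring cells together, each cell type carrying its own selection. The 6 genes described here, Cdh2, Cdh3, Cdh4, Cdh6, Cdh11 and Cdh13, encode members best known outside the E-cadherin of epithelia. They were chosen by name, by single gene symbol in the platform's annotation, with their levels on these arrays known, so every value of theirs is given as a description with no test. Which values led to the choice is not recorded. They are 6 of 18193 genes with a single-symbol probe set and are read by 15 probe sets. Of the 6, 5 passed the filter on low levels that left 13285 genes, and Cdh6 did not.

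The study measured total RNA of 2 clonal mouse lines described as progenitors of the pacemaker cells of gut muscle, which are called interstitial cells of Cajal (ICC), and of the stomach muscle wall that each came from. The tsA58 line (3 arrays) is the conditionally immortalized clone 2xSCS70 derived from H-2Kb-tsA58 mice, whose transgene is a temperature-sensitive viral T antigen behind an interferon-inducible promoter. It was kept at 39.5 °C with no interferon-gamma in a neural stem cell medium (NeuroCult NSCPM). The tsA58 tissue is gastric tunica muscularis of H-2Kb-tsA58 mice (3 arrays). The C57BL/6J line (3 arrays) is the wild-type clone 2xSCS2F10, kept at 37 °C in the same medium with 5% chick embryo extract. The C57BL/6J tissue is tunica muscularis of C57BL/6J mice (2 arrays). Each line is described as 1 clone, so its arrays do not sample other clones, and strain, transgene, temperature, extract and clone differ together between the lines and cannot be told apart. The labels call the arrays of a group biological replicates and do not say whether they came from separate cultures or animals.

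Classical cadherins bind a like molecule on the next cell with their outer domains and hold β-catenin, plakoglobin and p120-catenin with their tails, and α-catenin links that complex to actin. Cdh2 (N-cadherin), Cdh3 (P-cadherin) and Cdh4 (R-cadherin) are type I members, and Cdh6 (K-cadherin) and Cdh11 (OB-cadherin) are type II members. Cdh13 (T-cadherin) has no tail and is fixed to the membrane by a lipid anchor, so it is not classical by structure. Cdh3 is also found in epithelia. Cdh11 is known from mesenchymal cells and fibroblasts, Cdh2 from neurons, muscle and mesenchyme, and Cdh13 from vessels and smooth muscle.

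Levels are log2 intensities after the authors' robust multi-array average (RMA), so a difference of 1 is a doubling. The median level of an array was 4.66 to 4.84, and a probe set under its array's median is called low here. A gene is read from its brightest probe set, taken as the mean over all 11 arrays, and levels are compared only within a probe set. Array tsA58 line replicate 3 stood apart from its group. Its correlation over all probe sets was 0.967 and 0.956 with replicates 1 and 2, which correlated at 0.988 with each other. Its actin controls gave a log2 ratio of 3′ over 5′ signal of 0.05, against 0.51 and 0.85 on replicates 1 and 2. With the C57BL/6J line arrays it correlated at 0.949 to 0.953, against 0.926 to 0.941 for replicates 1 and 2. Whether it came from the same clone and culture conditions as the other two was not tested, and every tsA58 line mean includes it. The members' differences that use it are therefore also given without it where they come from the brightest probe set. Kit, the defining ICC receptor, was low on every array of both lines (3.51 ± 0.32 in the tsA58 line, 3.60 ± 0.26 in the C57BL/6J line). In the tissues it stood at 7.87 ± 0.66 (tsA58) and 7.15 ± 0.46 (C57BL/6J; SD, n = 3, 3, 3 and 2). Of the 4 ICC markers read, 2 were above the median on every array of both lines. These were Ano1 (7.15 ± 0.78 in the tsA58 line, 6.26 ± 0.28 in the C57BL/6J line) and Gja1 (10.39 ± 0.27 and 9.87 ± 0.41). Against tissue, 3 of the 4 were called lower in the tsA58 line, all but Gja1, and 4 of 4 in the C57BL/6J line. All 7 smooth muscle markers were above the median on every tissue array.

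**Figure D1:**
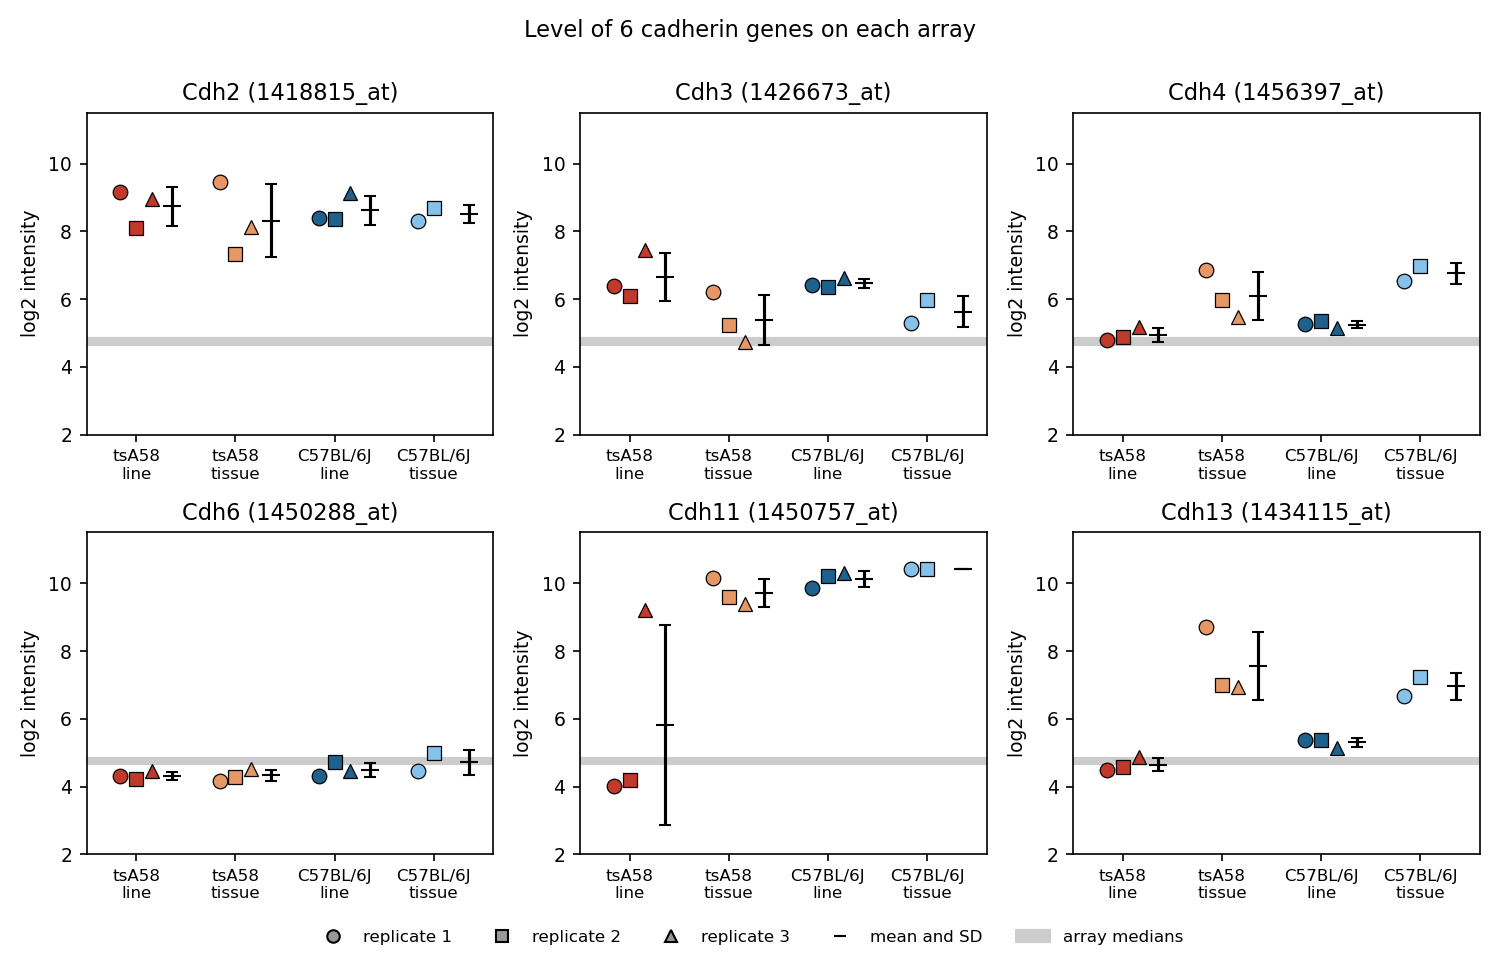
Log2 intensity of the 6 cadherin genes on each array, by group, with the mean and SD of each group beside the points and the range of array medians as a grey band. Cdh11 stands near 4 on replicates 1 and 2 of the tsA58 line and at 9.21 on replicate 3, while Cdh4 and Cdh13 stand higher in both tissues than in both lines.

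The mesenchymal cadherin Cdh11 split the tsA58 line. On its brighter probe set (1450757_at) the tsA58 line had 4.03, 4.18 and 9.21 on replicates 1, 2 and 3, against 10.16, 9.59 and 9.37 in tsA58 tissue. The C57BL/6J line had 9.87, 10.22 and 10.31, against 10.43 and 10.42 in C57BL/6J tissue. Replicates 1 and 2 of the tsA58 line were thus low, while replicate 3 lay just below the lowest tsA58 tissue array. The means were 5.81 ± 2.95 in the tsA58 line, 9.71 ± 0.41 in tsA58 tissue, 10.13 ± 0.23 in the C57BL/6J line and 10.42 ± 0.01 in C57BL/6J tissue (SD, n = 3, 3, 3 and 2).

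The tsA58 line was lower than its tissue by a log2 difference of -3.90 ± 1.10 (moderated standard error), or -5.60 ± 0.23 without replicate 3. Against the C57BL/6J line it was lower by -4.32 ± 1.10, or -6.03 ± 0.23 without that array. The wide errors come from the shared spread of the 4 groups, which replicate 3 enters. For the same reason the difference of the C57BL/6J line from its tissue carried an error of 1.23 with all arrays and 0.23 without replicate 3, around an unchanged -0.29. Ordered by mean, C57BL/6J tissue stood first, then the C57BL/6J line, tsA58 tissue and the tsA58 line. The C57BL/6J line and tsA58 tissue overlapped, and the other neighbours did not. The tissues differed by -0.72 ± 1.23 (-0.72 ± 0.23 without replicate 3), and the 3 tsA58 arrays lay below both C57BL/6J arrays.

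The other Cdh11 probe set (1435120_at) gave the same split. It had 2.45, 2.54 and 5.53 in the tsA58 line, against 6.94, 5.91 and 5.27 in tsA58 tissue, and here replicate 3 lay within the tissue's range. In the C57BL/6J line it averaged 6.17 ± 0.41, against 6.73 ± 0.07 in C57BL/6J tissue. Both probe sets correlated at r = 0.977 over the 11 arrays.

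The gap between replicate 3 and the mean of replicates 1 and 2 was 5.11 for Cdh11. Of the 13285 genes tested, 5 had a gap of at least 5, and Cdh11 was the fifth after Serpinb2 (6.82), Cxcl5 (5.67), Lrrn4 (5.24) and Il33 (5.21). A gap of 1 or more was found for 733 genes (5.52%), and one of -1 or less for 1377 (10.4%). Among the other 4 members tested, Cdh3 had a gap of 1.20 and Cdh2, Cdh4 and Cdh13 had gaps of 0.31 to 0.34.

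Markers of mesothelium, the cell layer that covers the stomach wall, moved with Cdh11 across the tsA58 line arrays. All 6 of 6 were higher by at least 1 on replicate 3 than on the mean of the other two, by a median of 2.68. Lrrn4 had 4.14, 2.97 and 8.79 on replicates 1, 2 and 3, the uroplakin Upk3b had 8.80, 7.85 and 12.43, and the transcription factor Wt1 had 7.29, 6.95 and 9.52. The list's mean level was 7.23, 6.43 and 9.82 on those arrays, against 8.78 to 9.12 in tsA58 tissue. It was 9.91 to 10.43 in the C57BL/6J line, against 8.80 to 8.97 in C57BL/6J tissue. Of 7 fibroblast markers 3 were higher by at least 1 on replicate 3 and 1 was lower. The proteoglycan Dcn had 7.71, 8.58 and 12.07, the collagen Col1a2 had 9.19, 9.31 and 12.51, and Pdgfra had 5.34, 5.80 and 8.10. No mesothelial marker was low on all arrays of any group. In the other 10 marker lists, 0 to 2 genes had a gap of at least 1 and none a gap of -1 or less. The part of these cell types in the Cdh11 levels was not tested. The 3′ to 5′ ratio was fitted as a covariate of the members' group differences, as given below. Its part in the gap between the tsA58 line arrays was not tested. In tissue, fewer cells of a type and less RNA per cell cannot be told apart.

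**Figure D2:**
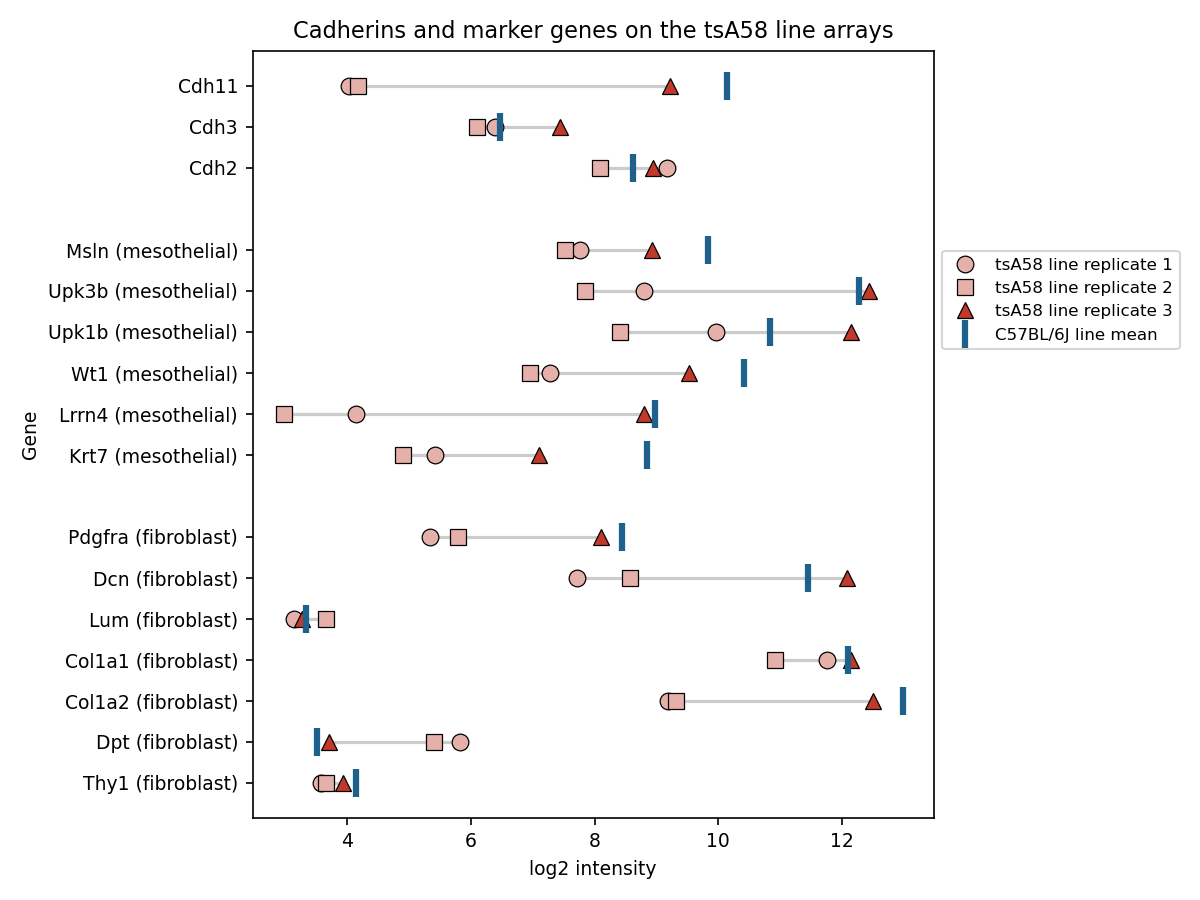
Log2 intensity of 3 cadherins, 6 mesothelial markers and 7 fibroblast markers on the 3 arrays of the tsA58 line (points), with the mean of the C57BL/6J line as a vertical tick. Cdh11 and all 6 mesothelial markers lie to the right on replicate 3, and Cdh2 does not.

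Cdh2, the N-cadherin of neurons and mesenchyme, was detected in all 4 groups with no separation between them. On 1418815_at the tsA58 line had 9.17, 8.09 and 8.94, against 9.47, 7.33 and 8.13 in tsA58 tissue. The C57BL/6J line had 8.39, 8.37 and 9.12, against 8.32 and 8.70 in C57BL/6J tissue. All 11 arrays were above their medians, and in the order tsA58 line, C57BL/6J line, C57BL/6J tissue and tsA58 tissue each neighbour overlapped the next. The tsA58 line differed from its tissue by 0.42 ± 0.49 (0.32 ± 0.56 without replicate 3) and the C57BL/6J line from its own by 0.12 ± 0.55. The lines differed by 0.11 ± 0.49 (0.003 ± 0.558 without replicate 3) and the tissues by -0.20 ± 0.55.

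The second Cdh2 probe set (1449244_at, r = 0.799 with the first) was above the median on every array too. Its 3 C57BL/6J line arrays, 7.29, 7.40 and 7.96, lay above both C57BL/6J tissue arrays, 6.17 and 6.64, by 1.14 ± 0.56. In the tsA58 line it had 8.05, 6.68 and 8.23, against 8.16, 6.49 and 6.59 in tsA58 tissue. The probe sets thus disagree in whether the C57BL/6J line overlaps its tissue.

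The P-cadherin Cdh3 had a higher mean in both lines than in both tissues, and the C57BL/6J line alone was clear of its tissue. On 1426673_at the C57BL/6J line had 6.41, 6.37 and 6.62, against 5.31 and 5.96 in C57BL/6J tissue, a difference of 0.83 ± 0.46 with no overlap. The tsA58 line had 6.39, 6.10 and 7.44, against 6.20, 5.24 and 4.73 in tsA58 tissue. These overlapped, since tissue replicate 1 lay above line replicate 2. The difference was 1.25 ± 0.41, and 0.86 ± 0.37 without line replicate 3, the array with the highest Cdh3 level. The lines differed by 0.18 ± 0.41, and by -0.22 ± 0.37 without that array, so the sign rests on it. The tissues differed by -0.24 ± 0.46. By mean, the tsA58 line overlapped the C57BL/6J line next to it and C57BL/6J tissue overlapped tsA58 tissue, while the C57BL/6J line did not overlap C57BL/6J tissue. The other Cdh3 probe set (1441255_at) was low on all 11 arrays, at 2.96 to 3.48.

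The gene next to Cdh3 on the chromosome in RefSeq is Cdh1, which encodes E-cadherin. Cdh1 was lower in the tsA58 line than in tsA58 tissue (2.87 ± 0.23 against 7.97 ± 1.22; -5.10 ± 0.47, limma adjusted p = 1.18e-05) and lower in the C57BL/6J line than in its own (4.03 ± 0.28 against 9.94 ± 0.05; -5.91 ± 0.53, limma adjusted p = 1.23e-05). Epithelial markers had a list mean of 9.96 to 10.92 in tsA58 tissue and 10.82 to 11.04 in C57BL/6J tissue. All 9 were above the median on every tissue array. In the lines the list mean was 5.87 to 6.82 (tsA58) and 7.15 to 7.38 (C57BL/6J), and 7 of the 9 were above the median on every array. Against its tissue, the tsA58 line had 6 of these markers called lower and 1 higher (Krt18, 1.48 ± 0.49). The C57BL/6J line had 5 called lower and 0 higher. Their part in the Cdh1 and Cdh3 levels was not tested.

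The R-cadherin Cdh4 and the lipid-anchored Cdh13 were lower in both lines than in the tissues. Cdh4 (1456397_at) had 4.79, 4.89 and 5.18 in the tsA58 line, against 6.87, 5.97 and 5.46 in tsA58 tissue. It had 5.27, 5.35 and 5.14 in the C57BL/6J line, against 6.53 and 6.99 in C57BL/6J tissue. Neither line overlapped its tissue, and the line arrays lay close above their array medians. The differences were -1.15 ± 0.30 in the tsA58 strain (-1.26 ± 0.34 without line replicate 3) and -1.51 ± 0.34 in C57BL/6J. The lines overlapped each other (-0.30 ± 0.30), as did the tissues (-0.66 ± 0.34). Without tsA58 line replicate 3 the lines no longer overlapped (-0.41 ± 0.34). The other Cdh4 probe sets, 1449422_at and 1449637_at, were low on every array.

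Cdh13 (1434115_at) had 4.50, 4.57 and 4.88 in the tsA58 line, against 8.71, 6.99 and 6.95 in tsA58 tissue. It had 5.39, 5.39 and 5.15 in the C57BL/6J line, against 6.67 and 7.25 in C57BL/6J tissue. Neither line overlapped its tissue, and the tsA58 line also lay wholly below the C57BL/6J line. Replicates 1 and 2 of the tsA58 line were low and all C57BL/6J line arrays were above their medians. The order between the lines thus lies near the array medians. The differences were -2.90 ± 0.40 for the tsA58 line and its tissue (-3.01 ± 0.46 without replicate 3), -1.65 ± 0.45 for the C57BL/6J line and its tissue, and -0.66 ± 0.40 between the lines (-0.77 ± 0.46 without replicate 3). The tissues overlapped (0.59 ± 0.45). Replicate 1 of tsA58 tissue had the highest level of Cdh4 and of Cdh13 in its group.

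Markers of smooth muscle and vessels were lower in both lines too, as were most other marker lists. The mean level of the 7 smooth muscle markers was 4.60 to 5.17 in the tsA58 line, against 11.86 to 12.24 in tsA58 tissue, and 5.11 to 5.40 in the C57BL/6J line, against 10.49 to 10.71 in C57BL/6J tissue. The 7 endothelial markers averaged 4.02 to 4.25 in the tsA58 line, against 6.31 to 6.81 in tsA58 tissue, and 3.98 to 4.34 in the C57BL/6J line, against 5.50 to 5.61 in C57BL/6J tissue. The 6 pericyte markers averaged 4.90 to 5.60 in the tsA58 line, against 8.38 to 8.64 in tsA58 tissue, and 4.86 to 5.04 in the C57BL/6J line, against 8.18 to 8.19 in C57BL/6J tissue. All 3 lists stood lower on every line array than on every array of its tissue. Called lower were 7 of 7 smooth muscle, 6 of 7 endothelial and 4 of 6 pericyte markers for the tsA58 line and tissue, and 6 of 7, 4 of 7 and 3 of 6 for the C57BL/6J line and tissue. None of these markers was called higher in either, and their part in the Cdh4 and Cdh13 levels was not tested. The drop was not particular to these lists. Enteric neuron markers had a median change of -5.70 (tsA58) and -4.52 (C57BL/6J), and macrophage and leukocyte markers -4.37 and -2.81. Only the mesothelial list had a positive median, 1.26 in C57BL/6J. Between the tissues all 3 lists had a higher mean in tsA58. There the mean of Cdh4 was lower (6.10 against 6.76) and that of Cdh13 higher (7.55 against 6.96).

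Of the other 3 Cdh13 probe sets, 1423551_at followed the first (r = 0.969). It averaged 3.83 ± 0.38 in the tsA58 line, against 6.48 ± 0.60 in tsA58 tissue, and 4.10 ± 0.07 in the C57BL/6J line, against 6.15 ± 0.18 in C57BL/6J tissue. Here the lines overlapped (-0.27 ± 0.28), and without tsA58 line replicate 3 they did not (-0.43 ± 0.30). This probe set was low on every line array, so it gives no order of the lines. The probe set 1454015_a_at was low everywhere, at 3.95 ± 0.58 in tsA58 tissue and at mean levels of 2.48 to 2.73 in the other groups. The fourth, 1431824_at, stayed between 2.83 and 3.40 on all arrays.

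The K-cadherin Cdh6 was near or under the array median throughout. On 1450288_at it averaged 4.33 ± 0.12 in the tsA58 line, against 4.33 ± 0.17 in tsA58 tissue, and 4.49 ± 0.21 in the C57BL/6J line, against 4.71 ± 0.38 in C57BL/6J tissue. It was above the median on 1 of 11 arrays, C57BL/6J tissue replicate 2, and each group overlapped its neighbour in order. On 1442257_at the C57BL/6J tissue arrays had 4.75 and 5.21, and all other arrays had 3.14 to 3.77. That tissue thus had the highest mean on both probe sets, and on the second alone it did not overlap the others. The second was also above the median only on C57BL/6J tissue replicate 2, so neither probe set gives an order of the groups.

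**Figure D3:**
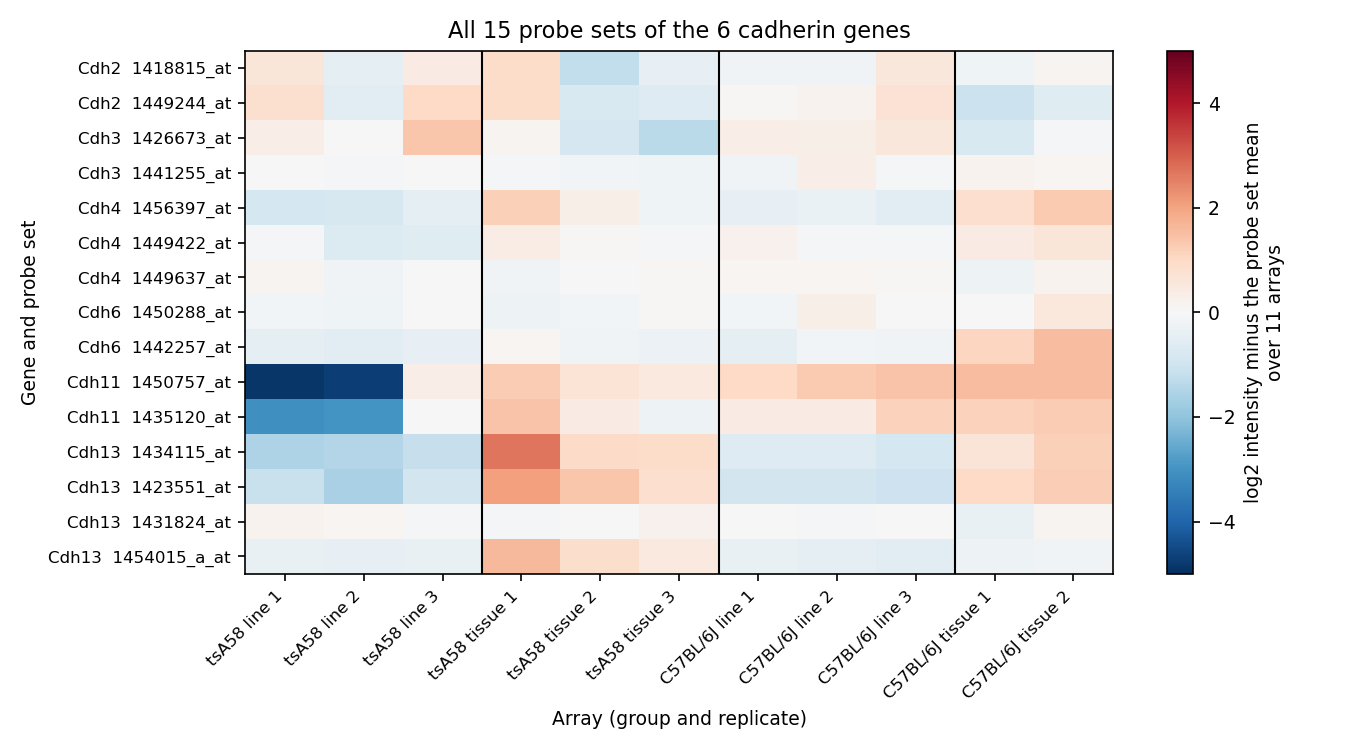
Each of the 15 probe sets (rows) on each array (columns), as log2 intensity minus the probe set's mean over the 11 arrays. Both Cdh11 rows are dark blue on replicates 1 and 2 of the tsA58 line only, and Cdh13 1434115_at and 1423551_at are blue on all 6 line arrays and red on all 5 tissue arrays.

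Counted over the 6 genes, the tsA58 line lay wholly above its tissue for 0, wholly below it for 3 (Cdh4, Cdh11 and Cdh13) and overlapped it for 3. Of all genes tested, 51.9% did not overlap in this comparison, and 12.8% were called higher and 18.9% lower. The C57BL/6J line lay wholly above its tissue for 1 (Cdh3) and wholly below it for 3 (Cdh4, Cdh11 and Cdh13), beside 75.2% of all genes not overlapping, 17.5% called higher and 16.6% called lower. The tsA58 line lay wholly below the C57BL/6J line for 2 (Cdh11, and Cdh13 near the array medians) and above it for 0, beside 40.3% not overlapping, 8.38% higher and 5.77% lower. The tsA58 tissue lay wholly below the C57BL/6J tissue for 1 (Cdh11), beside 54.3% not overlapping, 9.56% higher and 3.21% lower. A call is an adjusted p under 0.05 in limma with a change of at least 2-fold. The members were chosen with these contrasts known, so their counts are not set against those shares. The 4 comparisons share groups.

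Over the 24 differences of the members (6 genes in 4 comparisons), quantile normalisation moved none and cyclic loess moved 1 by more than the spread between replicates, Cdh11 in the C57BL/6J line and tissue (-0.56). Neither turned the sign of a difference between groups that did not overlap. Of those that did overlap, the Cdh2 difference in the C57BL/6J line and tissue turned to -0.018 and -0.170 under them, and the Cdh6 difference in the tsA58 line and tissue turned to 0.036 under quantile normalisation. Centring each array on its hybridisation control probe sets shifts all genes of a comparison alike. It moved the median change of all genes to 0.60 (from 0.00) for the tsA58 line and tissue, 1.35 (from 0.12) for the C57BL/6J line and tissue, 1.45 (from -0.04) for the lines and 2.30 (from 0.18) for the tissues. Under it, 1821 genes were called higher and 1151 lower for the tsA58 line and tissue (1698 and 2516 as deposited), and 5148 and 723 for the C57BL/6J line and tissue (2326 and 2204). It called 7582 and 96 for the lines (1113 and 767), and 12167 and 18 for the tissues (1270 and 426). For the C57BL/6J line and tissue, cyclic loess gave 1611 and 2701. For the tissues, quantile normalisation gave 910 and 601 and cyclic loess 849 and 549. Relative to the median of all genes, the members' differences are the same under the centring. In absolute terms, Cdh4 and Cdh13 stayed below their tissues in both lines and Cdh11 stayed below its tissue in the tsA58 line. The centring turned the sign of 11 of the 24 differences, 3 of them between groups that did not overlap. Cdh11 turned above its tissue in the C57BL/6J line (0.94) and higher in tsA58 than in C57BL/6J tissue (1.41), and Cdh13 turned higher in the tsA58 than in the C57BL/6J line (0.83). The actin 3′ to 5′ ratio as a covariate moved 7 of the 24 by more than the spread between replicates and reversed 1. Leaving out C57BL/6J tissue replicate 1 or 2 moved 4 each.

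**Figure D4:**
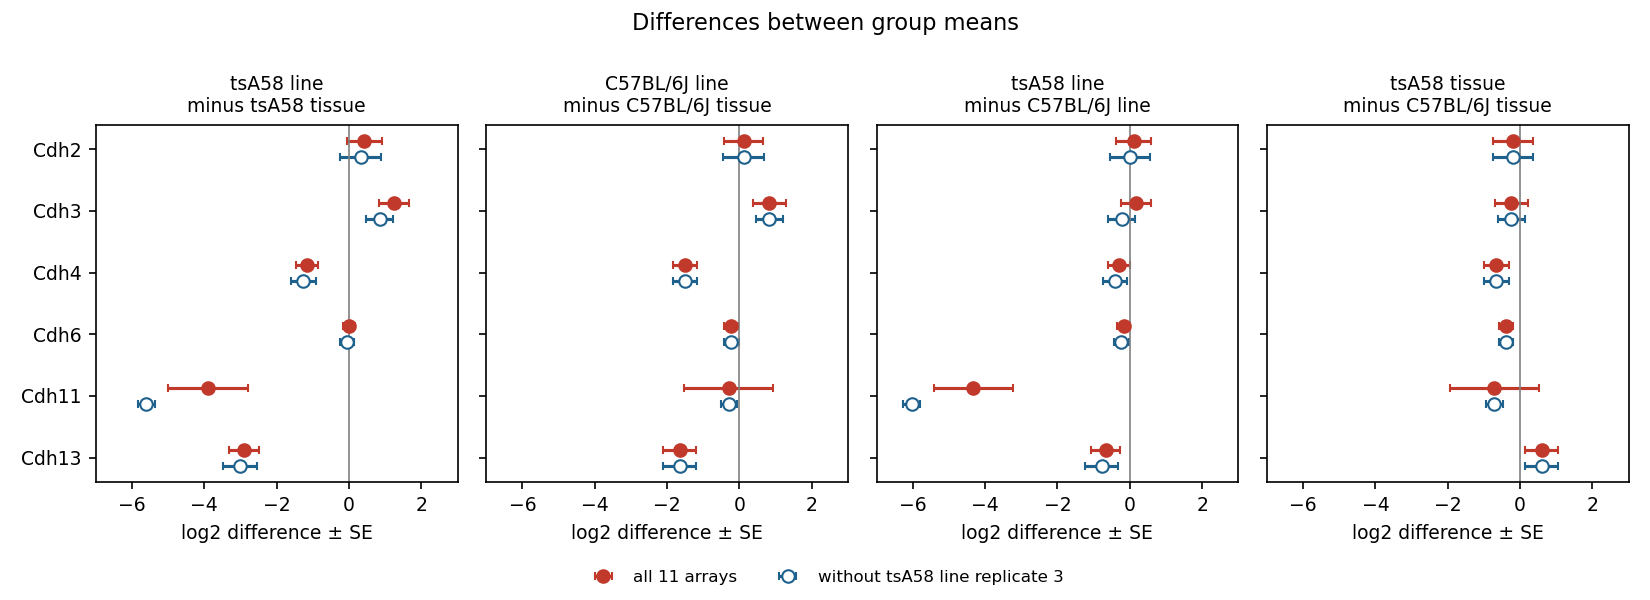
Difference of group means on the log2 scale with its moderated standard error for the 6 genes in the 4 comparisons, with all 11 arrays (filled) and without tsA58 line replicate 3 (open). Without that array Cdh11 moves to -5.60 and -6.03 in the comparisons of the tsA58 line, and its error narrows in all 4.

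Over the 11 arrays, the member pair with the most similar pattern was Cdh4 and Cdh13 (Pearson r = 0.887), followed by Cdh2 and Cdh3 (r = 0.613). All correlations here describe 11 arrays in 4 groups, so they carry the group differences and the arrays' shared cultures and tissues. The genes most like Cdh11 among those tested were Krt7 (r = 0.963), Lrrn4 (r = 0.961) and Nt5e (r = 0.959), and 2 of these 3 are on the mesothelial marker list. Those most like Cdh13 were Syndig1 and Naalad2 (r = 0.986 each) and Muc13 (r = 0.985), and those most like Cdh4 were Plppr5 (r = 0.974), Cd93 (r = 0.973) and Ecrg4 (r = 0.970). For Cdh3 they were Fam114a2 (r = 0.926), Aif1l (r = 0.924) and Rad23b (r = 0.923). Cdh2 had the weakest likeness, with Irs1 (r = 0.886), Lrrc8c (r = 0.809) and 2410004B18Rik (r = 0.786). For Cdh6, whose range was narrow, they were Krt6a (r = 0.908), Pomc (r = 0.907) and Fzd10 (r = 0.869).

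The catenins that bind cadherin tails are not among the members and were tested. The core genes were called in few comparisons. β-catenin (Ctnnb1) averaged 11.73 ± 0.05 in the tsA58 line and 11.82 ± 0.11 in its tissue (-0.09 ± 0.16, limma adjusted p = 0.703), and 11.88 ± 0.24 in the C57BL/6J line and 11.78 ± 0.04 in its tissue (0.10 ± 0.18, limma adjusted p = 0.679). Its probe set with the highest variance gave 1.50 in the C57BL/6J line and tissue (limma adjusted p = 0.00514) and 1.10 between the tissues (limma adjusted p = 0.0449), so the Ctnnb1 probe sets disagree. α-catenin (Ctnna1) and plakoglobin (Jup) were not called in any comparison, with differences of -0.21 to -0.05 and -0.74 to 0.55. Without line replicate 3, Jup was called lower in the tsA58 line than in tsA58 tissue (-1.06, limma adjusted p = 0.0222). p120-catenin (Ctnnd1) was higher in the tsA58 line (9.26 ± 0.21 against 8.20 ± 0.64 in its tissue; 1.06 ± 0.29, limma adjusted p = 0.0125), and was under the 2-fold limit without line replicate 1 (0.94) or tissue replicate 3 (0.74).

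Of all genes tested, 12.8% were called higher and 18.9% lower for the tsA58 line and tissue, and 17.5% and 16.6% for the C57BL/6J line and tissue. Between the lines these shares were 8.38% and 5.77%, and between the tissues 9.56% and 3.21%. They stand beside the counts of this list and of those below. Of the 13 genes of cytoplasmic partners tested (of 14 listed), the tsA58 line had 1 higher and 3 lower than its tissue (list median -0.23, all genes 0.00). The 3 were the δ-catenin Ctnnd2 (-2.17 ± 0.33), the neural α-catenin Ctnna2 (-2.13 ± 0.39) and the α-catulin Ctnnal1 (-1.79 ± 0.34). In the C57BL/6J line 1 was higher and 4 were lower than in its tissue (list median -0.21, all genes 0.12), among them Ctnnal1 (-3.74 ± 0.38), Ctnnd2 (-3.12 ± 0.37) and the plakophilin Pkp4 (-2.13 ± 0.52). Between the lines, 2 were higher in tsA58 and 0 lower: Ctnnal1 (2.34 ± 0.34) and Pkp4 (1.84 ± 0.46). The Pkp4 call between the lines ended without C57BL/6J line replicate 1 or 2, or tsA58 line replicate 1 or 2 (1.40 to 1.69, limma adjusted p = 0.0594 to 0.0705). Between the tissues 1 was higher in tsA58 and 0 lower: Arvcf, a p120 relative (1.55 ± 0.35), and it was not called without C57BL/6J tissue replicate 1 (1.21, limma adjusted p = 0.125). Enteric neuron markers were lower too: all 7 tested were called lower in each line than in its tissue, and their part was not tested. The medians of most other marker lists were lower as well. Between the lines 1 of the 7 was called higher and 2 lower in tsA58, while Ctnna2 and Ctnnd2 were low on every line array.

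**Figure D5:**
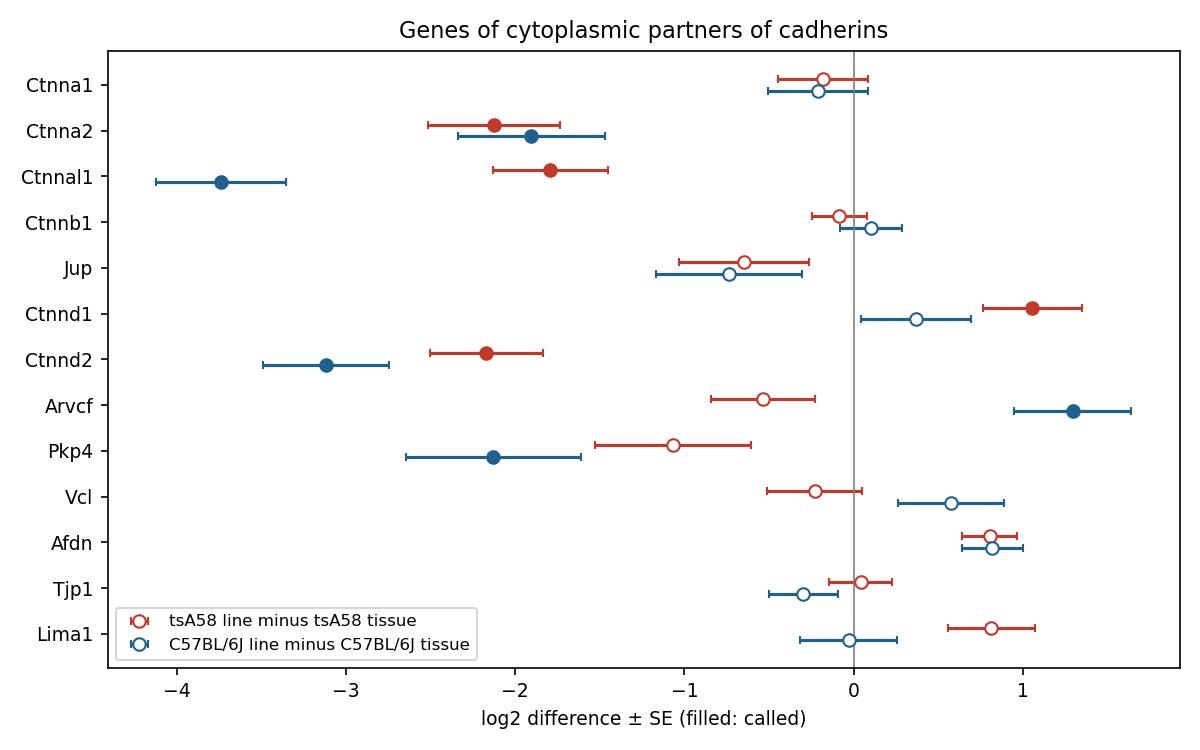
Log2 difference with its standard error for 13 genes of cytoplasmic partners, tsA58 line minus tsA58 tissue (red) and C57BL/6J line minus C57BL/6J tissue (blue), filled where called. Ctnna2, Ctnnal1 and Ctnnd2 lie left of 0 and are called in both, and Ctnnb1 and Ctnna1 lie near 0.

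Other classical cadherins were mostly low: of 13 listed, 6 passed the filter. In the tsA58 line 0 were higher and 3 lower than in its tissue (list median -1.16): Cdh1, the Schwann cell cadherin Cdh19 (-4.93 ± 0.25) and the endothelial cadherin Cdh5 (-1.85 ± 0.48). The means of the 6 glia and Schwann cell markers read were 4.27 to 4.61 in that line, against 6.69 to 7.62 in its tissue, and the endothelial markers moved as given beside Cdh13. The part of these cells in the Cdh19 and Cdh5 levels was not tested. In the C57BL/6J line 1 was higher and 2 were lower (list median -0.45): Cdh19 was lower (-2.85 ± 0.28; glia and Schwann means 4.71 to 4.74 in the line, against 7.04 to 7.05 in its tissue), Cdh5 was not called (-0.81 ± 0.54) and Cdh10 was higher (1.30 ± 0.43). The Cdh10 call ended without C57BL/6J line replicate 2 or 3 or either C57BL/6J tissue array (1.10 to 1.47, limma adjusted p = 0.0753 to 0.160). Cdh10 was lower in the tsA58 than in the C57BL/6J line (3.50 ± 0.11 against 5.47 ± 0.65; -1.97 ± 0.38), the 1 call of 6 there (list median -0.32). It was low on every tsA58 line array and on C57BL/6J line replicate 1. Its other probe sets did not pass the filter and gave 0.04, -0.14 and -0.18 between the lines. Between the tissues Cdh19 was higher (1.80 ± 0.28) and Cdh1 lower (-1.98 ± 0.53, turning to 0.15 under the centring) in tsA58 (list median -0.19). The Cdh1 call ended without either C57BL/6J tissue array, or tsA58 tissue replicate 1 or 3 (-2.01 to -1.55, limma adjusted p = 0.0661 to 0.137).

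Among 16 tested genes of the wider cadherin family (of 24 listed), the tsA58 line had 2 higher and 6 lower than its tissue, and the C57BL/6J line had 0 and 7 (list medians -0.31 and -0.64). The desmosomal cadherin Dsg2 was lower in both (-3.72 ± 0.39 and -5.98 ± 0.44). So were Fat4 (-2.06 ± 0.51 for the tsA58 line and -1.70 ± 0.57 for the C57BL/6J line), Dsc2 (-1.93 ± 0.53 and -3.85 ± 0.59) and Fat3 (-1.60 ± 0.20 and -3.24 ± 0.23). The protocadherin Pcdh19 was higher in the tsA58 line than in tsA58 tissue (2.25 ± 0.67), a call that ended without tsA58 line replicate 1 or 2 or tsA58 tissue replicate 3 (1.70 to 1.94, limma adjusted p = 0.0651 to 0.0730). Between the lines 1 was higher (Pcdh18, 1.50 ± 0.46) and 1 lower (Pcdh9, -2.25 ± 0.24) in tsA58. The Pcdh18 call ended without tsA58 line replicate 1 or 2, C57BL/6J line replicate 1 or 3 or either C57BL/6J tissue array (1.01 to 1.65, limma adjusted p = 0.0507 to 0.151). Between the tissues 1 was higher (Cdh17, 1.80 ± 0.29) and 3 were lower, including Dsg2 (-1.99 ± 0.44) and Fat3 (-1.80 ± 0.23), which turned to 0.14 and 0.33 under the centring. The Dsg2 call ended without either C57BL/6J tissue array (-2.02 and -1.96, limma adjusted p = 0.0698 and 0.0798).

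Nectins are adhesion proteins that gather at the same junctions as cadherins. Of 4 tested (of 5 listed), the tsA58 line had 2 higher than its tissue and 0 lower (list median 1.13): Nectin2 (8.37 ± 0.82 against 6.07 ± 0.64; 2.30 ± 0.43) and the poliovirus receptor gene Pvr (9.20 ± 0.41 against 7.25 ± 0.25; 1.95 ± 0.26). The C57BL/6J line had Nectin2 (2.93 ± 0.48) and Pvr (2.50 ± 0.30) higher and Nectin3 (-1.69 ± 0.32) lower than its tissue (list median 1.65). In limma, 0 were called between the lines or between the tissues, where 0 of 4 and 1 of 4 had an unadjusted p under 0.05.

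Of 9 tested genes for cadherin maturation and cleavage (of 10 listed), the tsA58 line had 0 higher and 2 lower than its tissue (list median -0.20). They were the proprotein convertase Pcsk5 (-2.21 ± 0.45) and the γ-secretase gene Psen2 (-1.07 ± 0.21). The other Psen2 probe set above the filter gave 0.05, and the change was under the 2-fold limit without tsA58 line replicate 1 or 3 or tsA58 tissue replicate 3 (-0.997 to -0.964). In the C57BL/6J line 1 was higher and 2 were lower than in its tissue (list median -0.30): Pcsk5 (-3.11 ± 0.50) and Aph1a (-1.66 ± 0.23) were lower, and Ncstn (1.57 ± 0.41) was higher. The Ncstn call ended without either C57BL/6J tissue array (limma adjusted p = 0.0509 and 0.0521). Between the lines Aph1a was higher in tsA58 (1.02 ± 0.21), and was under the 2-fold limit without C57BL/6J line replicate 3 (0.98) or tsA58 line replicate 3 (0.83). Between the tissues Ncstn was higher in tsA58 (1.42 ± 0.41), which was not called without C57BL/6J line replicate 1, either C57BL/6J tissue array or tsA58 tissue replicate 1 (0.94 to 1.43, limma adjusted p = 0.0354 to 0.153). Centring on the hybridisation controls ended further calls. In the tsA58 line and tissue these were Ctnnd2 (-1.58, limma adjusted p = 0.0502), Ctnna2 (-1.53), Ctnnal1 (-1.20), Cdh5 (-1.26), Fat4 (-1.46) and Psen2 (-0.47). In the C57BL/6J line and tissue they were Pkp4 (-0.90), Nectin3 (-0.46) and Aph1a (-0.42), and between the lines Cdh10 (-0.48) and Pcdh9 (-0.76). The centring added calls for Ctnnd1 in the C57BL/6J line and tissue (1.60), for Ctnna1 (1.44), Jup (2.04) and Ctnnd1 (2.22) between the lines, and for Ctnna1 (2.04), Ctnnb1 (2.16), Ctnnd1 (2.17), Jup (2.58) and Cdh5 (2.81) between the tissues. The actin ratio as a covariate ended the calls of Cdh10 (-1.74), Pcdh18 (1.75) and Aph1a (0.67) between the lines, and of Arvcf (1.05), Cdh1 (-2.07) and Ncstn (1.29) between the tissues. Fitting the compared groups alone left the changes as they were and ended the calls of Pcdh19 in the tsA58 line and tissue, Pkp4 and Pcdh18 between the lines, and Cdh1, Dsg2 and Ncstn between the tissues. It called Cdh1 lower in the tsA58 than in the C57BL/6J line (-1.16, limma adjusted p = 0.0122), as did leaving out tsA58 tissue replicate 2 (limma adjusted p = 0.00353). Cdh1 was low on every array of both lines, so these calls give no order of the lines. Cyclic loess ended Ctnnd1 in the tsA58 line and tissue (0.97), Aph1a between the lines (0.98) and Ncstn between the tissues (1.20), and quantile normalisation ended Pcdh18 (1.34) and Aph1a (0.90) between the lines. With no filter on low levels Pcdh18 was not called either (limma adjusted p = 0.050).

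Of the 42 calls named in comparisons of groups, 25 could be set beside further probe sets of the gene above the filter. In 24 every such probe set had the call's sign, and Psen2 was the exception among them. The difference between the line-tissue changes, tested further below, is not in these counts. There, probe sets of Ctnnal1, Arvcf and Adam10 disagreed in sign.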

How the data were processed

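The deposited values are log2 intensities of 45101 probe sets on Affymetrix mouse genome arrays, 1 array per sample. The authors made them with RMA, per the submitters' processing notes, from about 50 ng RNA amplified in 2 rounds, per the labels' protocols. Background correction and normalisation in RMA can compress low levels and assume like overall distributions. No genome build is given in the sources used here, and gene names come from the platform's annotation: 34945 probe sets have 1 symbol, 932 have several and were not named, and 64 controls were left out. RefSeq (GRCm38.p6) gave neighbouring genes.

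Each gene's probe set with the highest mean was used, and tested where above the array median on at least 2 arrays. Group means of all 11 arrays were fitted with limma 3.58.1 (R 4.3.3) with 7 residual degrees of freedom, and p-values were adjusted by Benjamini-Hochberg over 13285 genes. The code was tested on simulated data. The 6 members and all lists were chosen with earlier results of these data known. Named genes are all members, 4 core catenins, Cdh1, Cdh5, and up to 3 called genes per list and comparison with the largest change. Likeness takes the 3 tested genes with the highest Pearson r per member. Marker genes given as examples, and the genes with the largest replicate 3 gap, were picked after their values were seen. Samples were grouped by their labels. Same-numbered arrays of different groups correlated at -0.156 to 0.250 in their deviations over 15 pairs, so numbers were not taken to pair samples. Alternatives were other normalisations, filters, probe sets, variance models, covariates, a replicate block and leaving out each array. The number of arrays limits the precision. p-values measure the spread between these arrays, which may be technical.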

Additional observations from a re-analysis of the deposited data

Results flagged for a closer look

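The difference between the tsA58 and the C57BL/6J line-tissue change was tested for the genes of the lists by an interaction term in limma (tsA58 line minus tissue, minus C57BL/6J line minus tissue), and 9 of the named genes passed. None of them is one of the 6 cadherins, which were not tested. Positive values were found for Pcdh18 (2.35 ± 0.68, limma adjusted p = 0.0319), Dsg2 (2.26 ± 0.58, limma adjusted p = 0.0200), the α-catulin gene Ctnnal1 (1.95 ± 0.51, limma adjusted p = 0.0215), the γ-secretase gene Aph1a (1.93 ± 0.31, limma adjusted p = 0.00273) and the protease Adam10 (1.14 ± 0.35, limma adjusted p = 0.0399). Ctnnal1 averaged 6.08 ± 0.74 in the tsA58 line, 7.87 ± 0.22 in tsA58 tissue, 3.74 ± 0.41 in the C57BL/6J line and 7.48 ± 0.15 in C57BL/6J tissue. Dsg2 was under the median on every line array (3.55 ± 0.19 in the tsA58 line, 3.28 ± 0.10 in the C57BL/6J line), so its line levels give no order. Its tissues stood at 7.27 ± 1.01 (tsA58) and 9.26 ± 0.05 (C57BL/6J).

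Negative values were found for the Schwann cell cadherin Cdh19 (-2.08 ± 0.37, limma adjusted p = 0.00399), Cdh17 (-1.93 ± 0.39, limma adjusted p = 0.00692), the p120 relative Arvcf (-1.83 ± 0.46, limma adjusted p = 0.0184) and the protease Adam15 (-1.06 ± 0.26, limma adjusted p = 0.0165). Cdh19 too was under the median on every line array (3.06 ± 0.15 in the tsA58 line, 3.33 ± 0.16 in the C57BL/6J line), and its tissues stood at 7.99 ± 0.51 (tsA58) and 6.19 ± 0.23 (C57BL/6J; SD, n = 3, 3, 3 and 2 here and above). Cdh17 was under the median on every array outside tsA58 tissue. It stood at 3.32 ± 0.26 (tsA58 line), 3.45 ± 0.41 (C57BL/6J line) and 3.57 ± 0.04 (C57BL/6J tissue), against 5.37 ± 0.39 in tsA58 tissue. For Dsg2, Cdh19 and Cdh17 the interaction therefore does not show that either line fell further than the other. Leaving out an array ended 6 of the 9 calls. Ctnnal1 (1.84 and 2.05) and Dsg2 (2.22 and 2.29) lost theirs without either C57BL/6J tissue array, and Arvcf without C57BL/6J tissue replicate 1 (-1.49). Pcdh18 lost its call without 6 of the 11 arrays (1.87 to 2.67), Adam10 without 9 of 11 (0.94 to 1.19) and Adam15 without 4 of 11 (-1.10 to -0.94). Adam15 also lost its call under quantile normalisation (-0.92, limma adjusted p = 0.0581), cyclic loess (-0.87, limma adjusted p = 0.0728) and its probe set of highest variance (-1.24, limma adjusted p = 0.0528). Adam10 turned to -0.30 with its probe set of highest variance. On another Ctnnal1 probe set above the filter, the change was -1.40 for the tsA58 line and tissue and -0.90 for the C57BL/6J pair. The Ctnnal1 difference there had the opposite sign. The other Arvcf probe sets above the filter gave -0.65 and 0.48 for the tsA58 pair and -0.80 and 0.65 for the C57BL/6J pair. Each thus had the same sign in both pairs, unlike the Arvcf probe set tested (-0.535 and 1.294).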

How the results depend on the processing

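The members' values moved with probe set, scaling and array, and the cause was not tested. Another probe set reversed Cdh3 in the C57BL/6J line and tissue (-0.11), Cdh4 in the tsA58 (0.031) and C57BL/6J (0.13) line and tissue, and Cdh13 in both (0.007 and 0.062) and between the lines (0.104 and 0.076). All of these probe sets were low on every array. Hybridisation control centring reversed Cdh11 in the C57BL/6J line and tissue (0.94) and between the tissues (1.41), Cdh13 between the lines (0.83), Ctnna1 between the lines (1.44) and tissues (2.04), and Cdh1 (0.15), Dsg2 (0.14) and Fat3 (0.33) between the tissues. The 3′ to 5′ covariate reversed Cdh11 in the C57BL/6J line and tissue (0.25), and the highest-variance probe set reversed Adam10 in the interaction (-0.30).

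Genes called for the tsA58 line and tissue were 4214, and 6356 by adjusted p alone. Between the lines they were 1880, against 7678 with hybridisation control centring, 3245 with the 3′ to 5′ covariate and 3071 by adjusted p alone. Between the tissues they were 1696, against 12185 with that centring, 2562 with the highest-variance probe set, 2696 by adjusted p alone and 817 to 1912 leaving out 1 array (817 and 853 without C57BL/6J tissue replicate 1 and 2). Partner genes called went to 1 (tsA58 line and tissue), 7 (lines) and 12 (tissues) under that centring, against 4, 2 and 1. Between the lines 1 was called fitting only those groups and 1 to 3 leaving out an array. Between the tissues 2 were called with quantile normalisation, 4 with the highest-variance probe set, 0 with the covariate (a limma count) and 0 to 2 leaving out an array. Interaction calls were 11, 0 under the centring, and 4 to 14 leaving out an array (4 and 5 without C57BL/6J tissue replicate 1 and 2). The replicate number as a block gave 4202, 4476, 1844 and 1481 genes called in the 4 comparisons, where the numbers were not shown to pair samples. Named calls not made with it were Cdh10 in the C57BL/6J line and tissue (1.34, limma adjusted p = 0.0535), Pcdh18 between the lines (1.50, limma adjusted p = 0.0503) and in the interaction (2.17, limma adjusted p = 0.0649), Cdh1 between the tissues (-1.90, limma adjusted p = 0.055) and Adam10 in the interaction (1.04, limma adjusted p = 0.0755). With 2 or 3 arrays a group and no detection calls, low probe sets give no order.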
